A study of Mus musculus with 17 samples.

Results

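The genes described here are 10 heat shock chaperones and co-chaperones, chosen by symbol: Hspa1a, Hspa1b, Hsph1, Dnajb1, Dnaja1, Hspb1, Hsp90aa1, Hspa8, Hspd1 and Bag3. They are 10 of the 53278 gene symbols measured in sorted epithelial cells of the mouse small intestine. Of the 10, 9 had a transcripts-per-million value (TPM) of 1 or more in 2 or more libraries and were tested together with all 15066 genes that did. The exception was Hspb1.

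Chaperones bind unfolded stretches of other proteins and let them fold or be handed on. When misfolded proteins accumulate, heat shock factor 1 is released, binds short repeated elements before its target genes and raises their transcription within minutes. HSP70 proteins do the central work: J-domain proteins bring them their clients, and nucleotide exchange factors make them let go. HSP90 matures kinases and steroid receptors, the mitochondrial chaperonin HSP60 folds imported proteins, and small heat shock proteins hold clients until HSP70 takes over. In the intestine, inducible HSP70 is known as a cytoprotective protein of surface epithelium that responds to bacterial products.

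All pups were Igha -/+ on a C57BL/6 background, so every group carried 1 working copy of the gene for the IgA heavy chain. The groups compared were pups nursed by an IgA -/- dam (IgA-null-nursed) and pups nursed by a B6 dam (B6-nursed), at days of life 14, 24 and 42. Each of the 6 groups had 3 libraries, except B6-nursed pups at day 24, which had 2. The comparison of dams contrasts the pups' epithelium by the IgA genotype of the nursing dam, and would include any other difference between the dams. The comparison of days follows the gut from suckling to after weaning. The labels do not tell which pups shared a litter or a mother, so p-values cover the spread between these samples, which may be partly technical. The sample names carry dates. These differ between the dams at days 14 and 24, where dam and date cannot be told apart, and match at day 42. Within a dam the days also differ in date, apart from days 24 and 42 in IgA-null-nursed pups. The names also begin with F for the IgA -/- dam and M for the B6 dam at every age. They do not say what these letters mean.

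Reads recovered from the TPM values numbered 8477226 to 18305346 per library, with the fewest at day 14 in IgA-null-nursed pups. The predicted gene Gm23935 took 40.2% to 61.9% of a library's TPM and mitochondrial genes a further 13.7% to 34.6%. The TPM of most other genes moved together between groups: the median log2 change over all tested genes was -1.02 for day 24 over day 14 in IgA-null-nursed pups. The part of Gm23935 and the mitochondrial genes in this shift was not tested. Each result is thus given on the TPM as deposited and on TPM divided by a median-of-ratios size factor, called scaled below, for which every such median lay between -0.03 and 0.01. Epcam, the sorting antigen, was at 153 to 500.0 TPM, and all 8 epithelial markers were detected in every group. Of 11 leukocyte markers, 3 passed the filter, with sums of 0.914 to 13.5 TPM per library, and Ptprc, which encodes CD45, reached at most 0.806 TPM. None of 8 stromal and endothelial markers passed, and their sums stayed at or under 0.817 TPM. Of 4 erythroid markers 2 passed, with sums of 0.350 to 31.1 TPM per library, the highest in IgA-null-nursed pups at day 24. In these bulk libraries, fewer cells of a type and less RNA per cell cannot be told apart.

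The 10 genes differed widely in level. On the deposited TPM scale, which is per transcript length, Hspa8 was highest, with a median of 183 TPM over the 17 libraries and a range of 70.9 to 421 TPM. Hsp90aa1 ranged from 33.7 to 151 TPM and Hspd1 from 31.4 to 127 TPM. Together these 3 genes made up 84.8% to 93.1% of the summed TPM of the 10. The co-chaperones lay lower: Dnaja1 at 3.85 to 16.2 TPM, Dnajb1 at 4.60 to 13.8 TPM, Hsph1 at 3.29 to 13.7 TPM and Bag3 at 3.69 to 11.8 TPM. The inducible HSP70 genes spanned the widest range. Between the lowest and the highest library, scaled TPM differed 101-fold for Hspa1a and 66.6-fold for Hspa1b, against 1.56-fold for Hspa8 and 4.21-fold for Bag3.

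**Figure D1:**
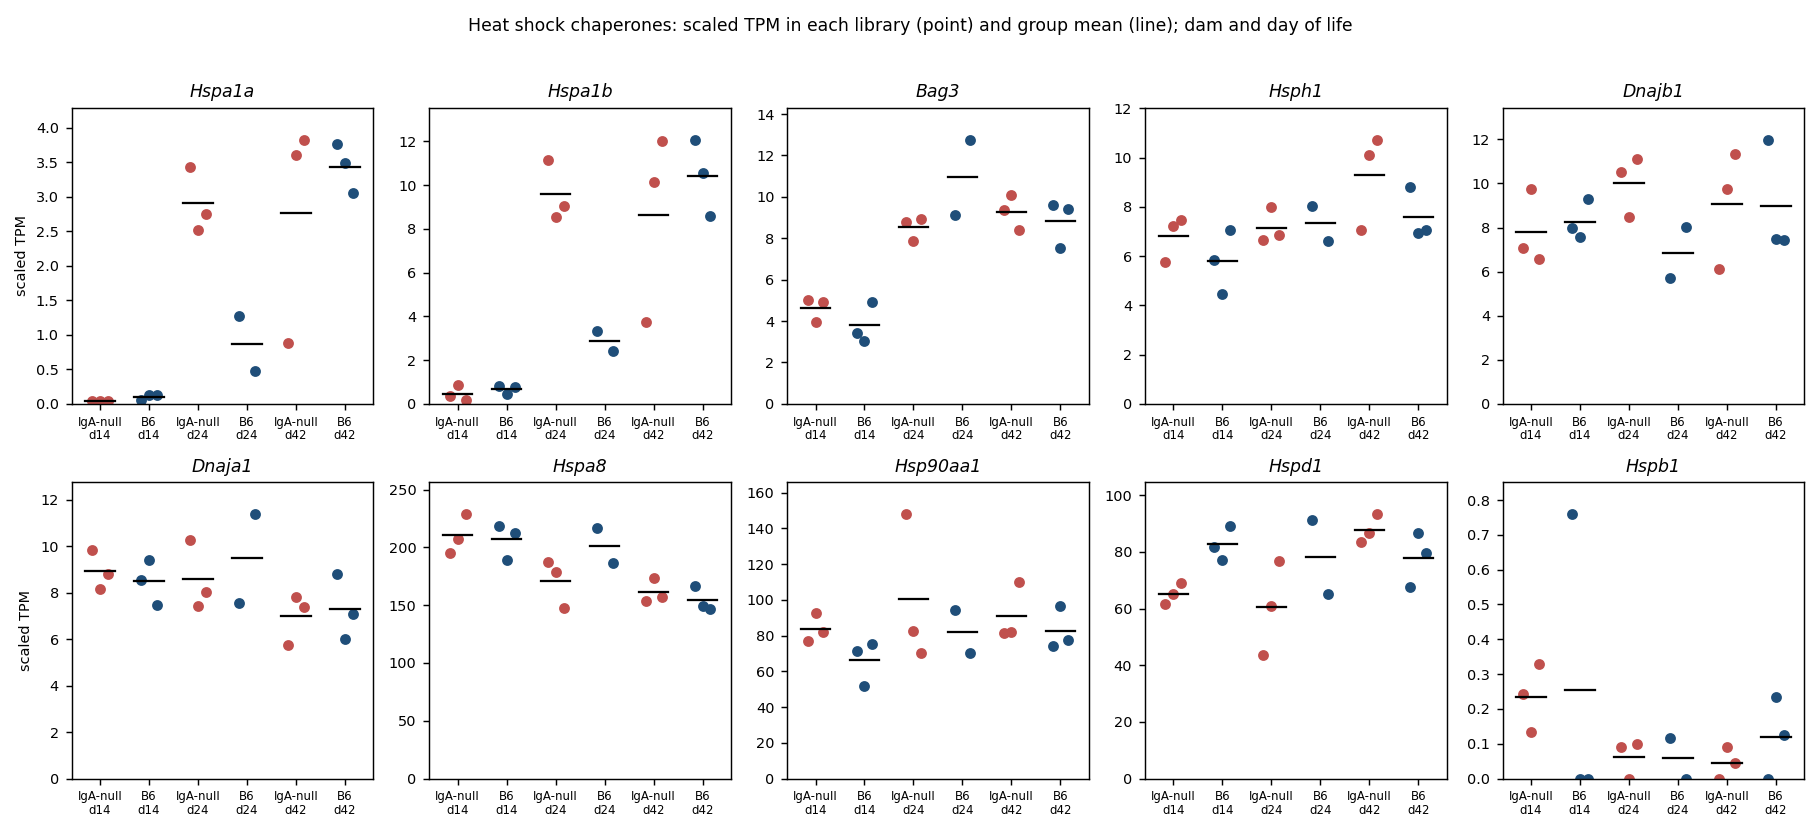
Scaled TPM (y axis, linear from 0) of the 10 chaperone genes in each of the 17 libraries, by dam and day of life (d14, d24, d42); red points are libraries in IgA-null-nursed pups, blue points libraries in B6-nursed pups, and black lines group means. Hspa1a and Hspa1b lie close to 0 in all 6 libraries of day 14, while Hspa8 stays between 147 and 229 scaled TPM in all 17.

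Hspa1a and Hspa1b are neighbouring 1-exon genes that encode the stress-inducible HSP70 protein in near-identical copies. In GRCm38, Hspa1a lies on chr17:34969190-34972156 and Hspa1b on chr17:34956436-34959238, both on the minus strand. The 250 bases before each start are shown because the pair moved together; the sequences are from RefSeq, build GRCm38.p6, minus strand, at chr17:34972157-34972406 for Hspa1a and chr17:34959239-34959488 for Hspa1b. Capitals mark the letters of a heat shock element of 2 inverted units, GAANNTTC or TTCNNGAA, which read the same on both strands.
Hspa1a: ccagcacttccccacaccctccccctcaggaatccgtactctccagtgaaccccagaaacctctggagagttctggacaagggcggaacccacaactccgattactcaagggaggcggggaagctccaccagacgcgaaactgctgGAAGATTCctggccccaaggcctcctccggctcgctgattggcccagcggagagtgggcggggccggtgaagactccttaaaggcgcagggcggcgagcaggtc
Hspa1b: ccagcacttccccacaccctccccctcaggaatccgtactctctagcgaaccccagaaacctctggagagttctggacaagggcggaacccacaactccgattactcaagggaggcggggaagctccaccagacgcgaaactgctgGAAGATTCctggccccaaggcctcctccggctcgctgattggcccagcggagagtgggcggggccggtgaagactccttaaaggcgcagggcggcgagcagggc
The stretches differ at 3 of 250 bases, and the element sits 97 to 104 bases before the start in both.

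The transcripts of the pair are alike as well. Of all 50-base windows of the Hspa1a transcript, 66.3% also occur in another gene, 58.8% in Hspa1b, and 62.3% of the Hspa1b windows occur in Hspa1a. How the deposited counting divided reads between them is not given in the sources used here, so the split between the 2 genes is uncertain. The TPM of Hspa1b was 2.62 to 5.11 times that of Hspa1a in the 11 libraries of days 24 and 42, and 3.81 to 18.5 times in the 6 libraries of day 14.

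Both inducible HSP70 genes were low at day 14 with either dam and higher at both later days. In IgA-null-nursed pups, Hspa1b stood at 0.629, 1.21 and 0.334 TPM at day 14, at 8.05, 4.64 and 4.34 TPM at day 24, and at 4.13, 10.7 and 11.9 TPM at day 42. In B6-nursed pups it stood at 0.931, 0.572 and 0.907 TPM at day 14, at 3.63 and 1.63 TPM at day 24, and at 9.36, 11.0 and 10.7 TPM at day 42. Every library of days 24 and 42 was above every library of day 14. Within day 42, replicate 1 of the IgA-null-nursed pups was lowest, below the other 2 of its group and all 3 B6-nursed libraries. Scaled group means ran, in rising order, 0.473 (IgA-null-nursed, day 14), 0.684 (B6-nursed, day 14), 2.87 (B6-nursed, day 24), 8.65 (IgA-null-nursed, day 42), 9.58 (IgA-null-nursed, day 24) and 10.4 (B6-nursed, day 42). The libraries of the lowest 2 groups overlapped, as did those of the highest 3.

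Hspa1a followed the same order at lower levels. Among IgA-null-nursed pups it was at 0.0699, 0.0651 and 0.0701 TPM at day 14, at 2.48, 1.37 and 1.32 TPM at day 24, and at 0.966, 3.80 and 3.78 TPM at day 42. Among B6-nursed pups it was at 0.0694, 0.150 and 0.158 TPM at day 14, at 1.38 and 0.318 TPM at day 24, and at 2.91, 3.63 and 3.82 TPM at day 42. The day 14 values rest on 6 reads in all in IgA-null-nursed pups and 15 in B6-nursed pups. No library of day 14 reached the lowest later library, the second B6-nursed library of day 24.

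**Figure D2:**
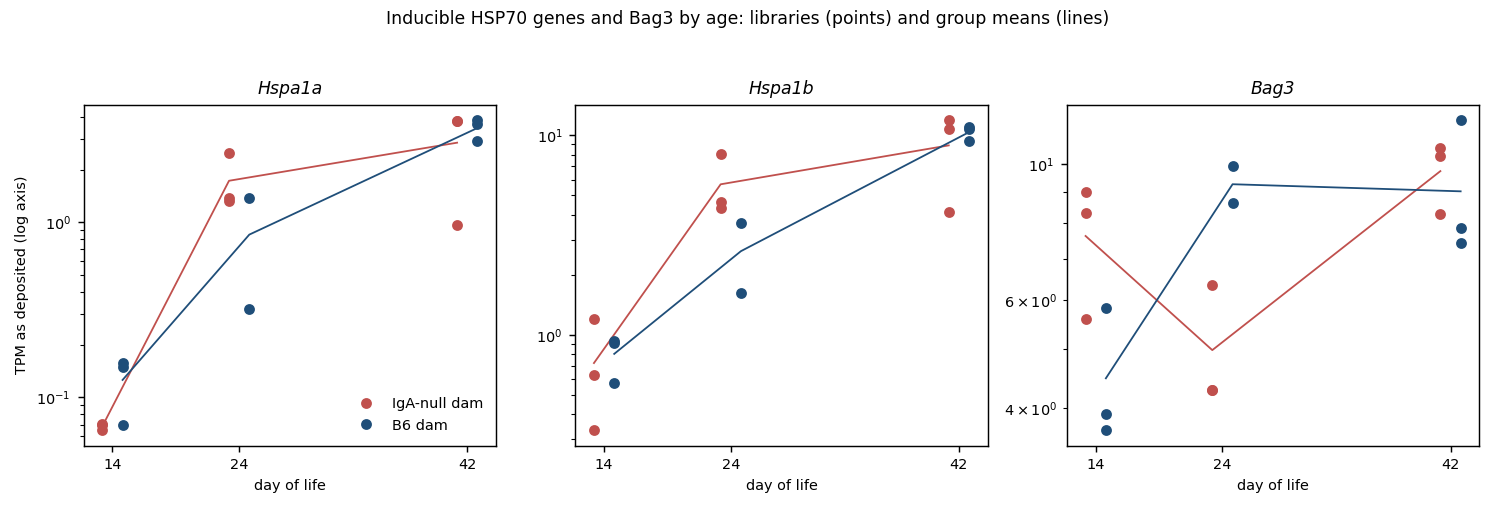
Deposited TPM (y axis, log scale) of Hspa1a, Hspa1b and Bag3 against day of life; red points and lines are libraries and group means in IgA-null-nursed pups, blue those in B6-nursed pups. For Hspa1a and Hspa1b every library of days 24 and 42 lies above every library of day 14 with either dam; for Bag3, the IgA-null libraries of day 24, at 4.28 to 6.35 TPM, overlap those of day 14.

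On the log2(TPM + 1) scale, which understates changes of low genes, Hspa1b rose by day 42 over day 14 by 2.44 in IgA-null-nursed pups (95% interval 1.77 to 3.12, adjusted p = 8.73e-05, limma). For B6-nursed pups the same change was 2.66 (1.99 to 3.33, adjusted p = 4.01e-05). Hspa1a rose by 1.74 in IgA-null-nursed pups (1.11 to 2.36, adjusted p = 0.000739) and by 1.98 in B6-nursed pups (1.36 to 2.60, adjusted p = 0.000352). After scaling the 4 changes were 2.61, 2.75, 1.74 and 2.00, all called. Each of these calls remained when any library was left out, on both scales. Both genes passed the filter through the libraries of the later days, where they were high. Their entry into the test was thus not independent of this rise.

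Between days 24 and 14 the genes rose in IgA-null-nursed pups, Hspa1b by 1.94 (1.27 to 2.62, adjusted p = 7.53e-05, limma) and Hspa1a by 1.33 (0.70 to 1.95, adjusted p = 0.000659). Scaling gave 2.86 and 1.90, both called. In B6-nursed pups, at 2 against 3 libraries, Hspa1b differed by 0.96 (0.21 to 1.71, adjusted p = 0.102) and Hspa1a by 0.66 (-0.04 to 1.35, adjusted p = 0.209). Scaled Hspa1b passed there (1.20, adjusted p = 0.0290) but no longer when any 1 of the 5 libraries was left out (adjusted p 0.0551 to 0.102). Without either library of day 24 that group holds 1, assumed to vary like the other groups. Scaled Hspa1a did not (0.73, adjusted p = 0.142).

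As ratios of recovered reads, corrected for effective depth, Hspa1b at day 42 was 19.3 times its day 14 level in IgA-null-nursed pups (exact 95% interval 15.0 to 25.4) and 14.6 times in B6-nursed pups (11.9 to 18.2). For Hspa1a these ratios were 66.8 (30.5 to 183) and 32.2 (19.4 to 58.0). At day 24 Hspa1b was 21.4 times its day 14 level in IgA-null-nursed pups (16.5 to 28.2) and 4.23 times in B6-nursed pups (3.36 to 5.37). Hspa1a was 69.8 times (31.7 to 192) and 9.02 times (5.25 to 16.6) its day 14 level. These intervals cover counting error only, not the spread between pups, and the reads are PCR products without molecular identifiers.

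Other features of the libraries differed between the same days. The summed scaled TPM of 8 suckling enterocyte markers was 94.9 to 145, 75.9 to 96.2 and 17.5 to 29.9 at days 14, 24 and 42 in IgA-null-nursed pups. Among B6-nursed pups it was 244 to 1026, 20.6 to 225 and 16.6 to 133. In B6-nursed pups, the summed scaled TPM of 7 goblet cell markers was 280 to 437, 913 to 1313 and 1511 to 2094 at the 3 days, and that of 10 enteroendocrine markers 177 to 258, 885 to 1067 and 519 to 1591. In IgA-null-nursed pups the goblet sums were 1098 to 1755, 1112 to 2155 and 1461 to 1713, and the enteroendocrine sums 886 to 1072, 348 to 494 and 1098 to 1915. The goblet sums thus followed the days in B6-nursed pups and overlapped between days in IgA-null-nursed pups. Jun, an immediate early transcription factor that also responds to tissue handling, was lower as deposited at both later days. It averaged 82.8 ± 19.2, 19.8 ± 6.31 and 18.0 ± 4.97 deposited TPM at the 3 days in IgA-null-nursed pups and 65.0 ± 16.8, 18.3 ± 2.04 and 22.7 ± 4.14 in B6-nursed pups (SD, n = 3, or 2 for B6-nursed pups at day 24). The median log2 change of all genes as deposited was -1.02 and -0.48 at days 24 and 42 over day 14 in IgA-null-nursed pups. For B6-nursed pups it was -0.29 and -0.17. After scaling, 3 of 18 immediate early genes rose and 1 fell at day 24 over day 14 in IgA-null-nursed pups. Of 15066 genes 1258 rose and 1247 fell there. In B6-nursed pups 2 rose and 3 fell, beside 1194 and 890 of all genes. The part of these features in the rise of Hspa1a and Hspa1b was not tested.

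Bag3 encodes an exchange factor that couples HSP70 to small heat shock proteins and to selective autophagy; it lies on chr7:128523616-128546981, plus strand. IgA-null-nursed pups had 8.30, 5.58 and 9.01 TPM of it at day 14, 6.35, 4.29 and 4.28 TPM at day 24, and 10.3, 10.6 and 8.27 TPM at day 42. B6-nursed pups had 3.91, 3.69 and 5.82 TPM at day 14, 9.90 and 8.62 TPM at day 24, and 7.44, 7.85 and 11.8 TPM at day 42. The later libraries overlapped those of day 14 in IgA-null-nursed pups and lay above them in B6-nursed pups.

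The direction of Bag3 in IgA-null-nursed pups depended on the scale. For day 24 over day 14 the deposited change was -0.53 (adjusted p = 0.0389, limma), where the median gene fell by 1.02, and the scaled change was 0.76 (0.43 to 1.10, adjusted p = 0.00616). The deposited call was lost without replicate 1 or 3 of day 14, or 2 or 3 of day 24 (adjusted p 0.112 to 0.145). For day 42 over day 14 the deposited change was 0.33 (adjusted p = 0.230) and the scaled change 0.87 (adjusted p = 0.00221). Deposited Bag3 also rose in these pups for day 42 over day 24, by 0.86 (adjusted p = 0.00844), where the median gene rose by 0.53, and the scaled change was 0.11 (adjusted p = 0.714).

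In B6-nursed pups Bag3 rose by 0.92 at day 24 (0.39 to 1.45, adjusted p = 0.0304, limma) and by 0.87 at day 42 (0.39 to 1.34, adjusted p = 0.0215), both over day 14. These deposited calls were lost without replicate 1 or 2 of day 14, the first without either library of day 24, and the second without replicate 3 of day 42 (adjusted p 0.0589 to 0.115). The scaled changes were 1.32 and 1.05 (adjusted p = 0.000262 and 0.000413). All 4 scaled changes over day 14, 2 with each dam, were called whichever library was left out.

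**Figure D3:**
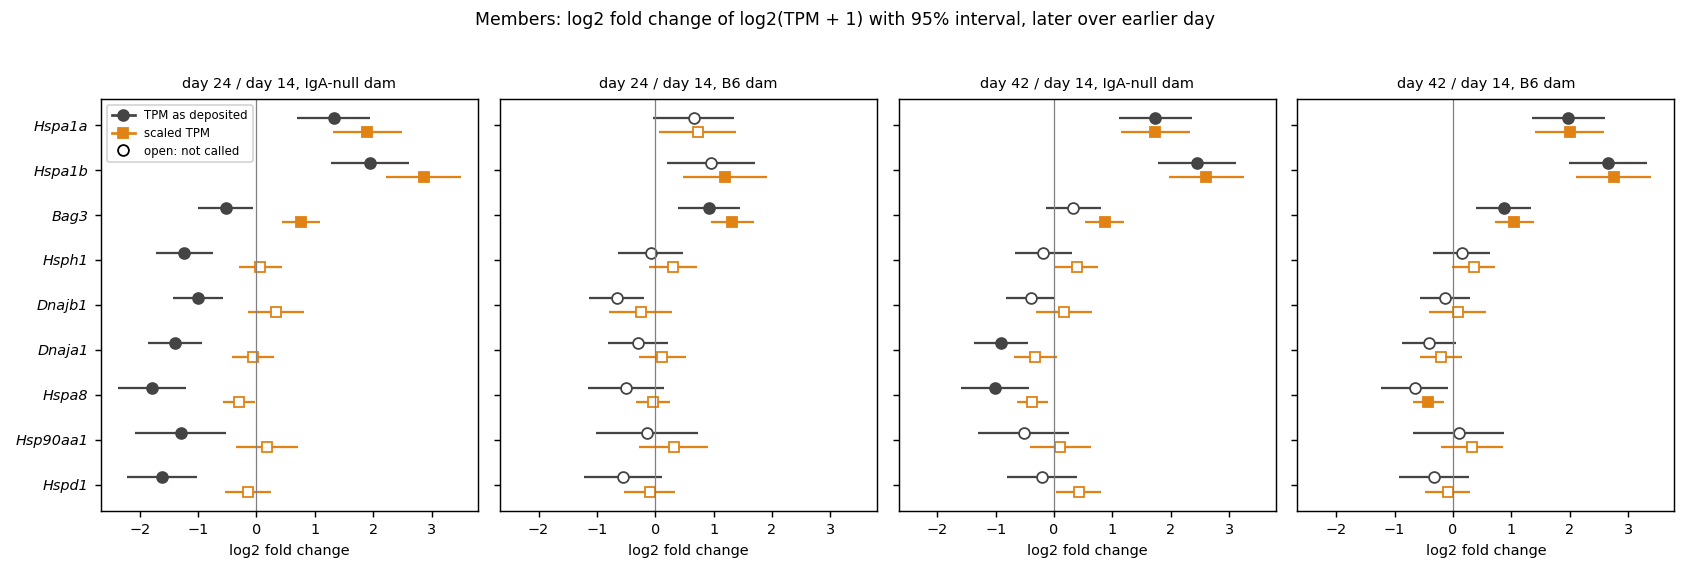
Log2 fold change of log2(TPM + 1), later over earlier day (x axis), with its 95% interval for the 9 tested genes; grey circles are deposited TPM, orange squares scaled TPM, and open symbols did not pass an adjusted p of 0.05. Hspa1a, Hspa1b and scaled Bag3 lie right of 0 in every panel, while the deposited values of the other 6 genes lie left of 0 at day 24 in IgA-null-nursed pups and their scaled values near 0.

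Counted over the group, 9 of 9 tested genes changed between days 24 and 14 in IgA-null-nursed pups on deposited TPM, 2 higher and 7 lower. Of all genes 0.863% were called higher and 82.9% lower, so the 7 falls lay at the background. After scaling 3 rose, Hspa1a, Hspa1b and Bag3, and none fell, with 8.35% of all genes called higher. For day 42 over day 14 in the same pups 2 rose and 2 fell as deposited, with 1.77% of genes called higher and 38.9% lower, and 3 rose after scaling (8.4% of genes). Among B6-nursed pups 1 gene rose at day 24 as deposited (1.62% of genes called higher) and 2 after scaling (7.93%). At day 42 in B6-nursed pups 3 rose as deposited (2.78%) and after scaling (7.04%), and 1 fell after scaling (6.6% called lower). Where Hspa1a and Hspa1b are among the genes that rose, they had entered the test through the later days, where they were high. They also share much of their sequence, so their calls are not independent. The counts of rises thus cannot be weighed against these shares.

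Day 42 over day 24 gave fewer calls. In IgA-null-nursed pups 5 genes rose on deposited TPM, where 48.5% of all genes did, and none after scaling, where 2.58% of genes were called by limma. Unadjusted p-values under 0.05 on that scale numbered 1 among the 9 and 3472 among the 15066. For B6-nursed pups limma called none of the 9 on either scale, with 0.0199% of all genes called as deposited and 0.0265% after scaling. On each scale 3 of the 9 had an unadjusted p under 0.05 there, against 3.75% of all genes as deposited and 7.03% after scaling. Hspa1b had the greatest difference of the 9 on both scales, 1.70 (0.95 to 2.45, adjusted p = 0.362) as deposited and 1.56 after scaling (adjusted p = 0.268). Without the first B6-nursed library of day 24 scaled Hspa1a and Hspa1b passed (adjusted p = 0.0355 and 0.0393), as did 5.2% of all genes. That fit leaves 1 library in the group, which is assumed to vary like the other groups.

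Of the other partners of HSP70 within the group, Hsph1, Dnajb1 and Dnaja1, none was called between days after scaling. Hsph1 encodes HSP110, an exchange factor induced by heat. Its scaled TPM averaged 6.81 ± 0.935, 7.16 ± 0.718 and 9.29 ± 1.97 at days 14, 24 and 42 in IgA-null-nursed pups (SD, n = 3), and 5.79 ± 1.31, 7.34 ± 1.01 and 7.61 ± 1.05 in B6-nursed pups (n = 3, 2 and 3). Libraries of days 42 and 14 overlapped with either dam. Scaled day 42 over day 14 was 0.39 (0.02 to 0.75, adjusted p = 0.137) and 0.35 (-0.01 to 0.72, adjusted p = 0.205), both short of the threshold.

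Dnajb1, the heat-induced J-domain partner of HSP70, spanned 6.58 to 9.77, 8.46 to 11.1 and 6.10 to 11.3 scaled TPM at days 14, 24 and 42 in IgA-null-nursed pups. In B6-nursed pups it spanned 7.56 to 9.29, 5.71 to 8.01 and 7.44 to 12.0. Dnaja1, a J-domain protein of the cytosol, spanned 8.18 to 9.84, 7.43 to 10.3 and 5.75 to 7.83 in IgA-null-nursed pups, and 7.49 to 9.40, 7.57 to 11.4 and 5.99 to 8.79 in B6-nursed pups. As deposited, Dnaja1 in IgA-null-nursed pups fell for day 42 over day 14 by 0.91 on the log2 scale (adjusted p = 0.00624), where the median gene fell by 0.48.

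Hspa8 encodes the constitutive HSP70 of the cytosol and lies on chr9:40800984-40810087, plus strand. Its scaled TPM at day 42 was 154, 174 and 158 in IgA-null-nursed pups, against 195, 207 and 229 at day 14. Among B6-nursed pups it was 166, 149 and 147 at day 42, against 219, 190 and 212 at day 14. In neither dam did the days overlap, and in both the later day was lower. The scaled change was -0.38 in IgA-null-nursed pups (-0.64 to -0.11, adjusted p = 0.0539, limma) and -0.42 in B6-nursed pups (-0.69 to -0.16, adjusted p = 0.0374). Limma-voom on recovered reads called both (-0.38, adjusted p = 0.0365, and -0.42, adjusted p = 0.0242). The B6-nursed call was lost without replicate 1 or 3 of day 14, or 2 or 3 of day 42 (adjusted p 0.101 to 0.130). The deposited fall at day 42 over day 14 was called in IgA-null-nursed pups (-1.01, adjusted p = 0.0112), though not without replicate 3 of day 14 (adjusted p = 0.0583), and not in B6-nursed pups (-0.66, adjusted p = 0.161). Of its transcript windows, 39.4% occur in other genes, among them Gm26825 at 0.215 to 1.52 TPM.

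Hsp90aa1 encodes the inducible HSP90, and Hspd1 the mitochondrial HSP60. Scaled Hsp90aa1 was at 148, 82.5 and 70.2 TPM at day 24 in IgA-null-nursed pups, so that replicate 1 stood above every other library of the series. Scaled Hspd1 in the same libraries was 43.6, 61.0 and 76.8 TPM, with replicate 1 the lowest library of the series. Neither gene was called between days after scaling. Hspd1 at day 42 over day 24 in IgA-null-nursed pups came closest (0.57, 0.18 to 0.96, adjusted p = 0.0928), and passed without replicate 3 of day 24 (adjusted p = 0.0434). Near copies touch both: 47.5% of the Hsp90aa1 windows occur elsewhere, most in Gm12346 at 2.52 to 13.3 TPM, and 42.1% of the Hspd1 windows, most in Hspd1-ps3 at up to 36.2 TPM.

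Hspb1, the small heat shock protein HSP27 or HSP25, was barely detected. It was listed at 0 in 6 of 17 libraries and reached at most 0.866 TPM, in replicate 1 of the B6-nursed pups at day 14. The other 2 libraries of that group were at 0. The 3 groups in IgA-null-nursed pups held 12, 2 and 3 reads in all at days 14, 24 and 42, and those in B6-nursed pups 13, 3 and 8 reads. No fold change is given for it.

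The start regions of these genes were read for heat shock element letters. RefSeq start windows, 250 bases before to 50 after a start, matched 8 of the 10 genes, all but Hsp90aa1 and Hspa8. Of the 8, 7 held an element of 2 units, and Dnajb1 held none. The same letters were found for 4587 of 27025 genes, and in 15.1% of 32851 windows. A chain of 3 alternating units, each set off by 2 free bases, was present for Hsph1 and Hspd1 and in 0.662% of all genes. The 2-unit count includes the parts of such chains. Stretches of 30 bases around the elements of 3 genes are shown because Hspd1 and Hsph1 held the chain and Bag3, called higher after scaling, a 2-unit element. They are GRCm38.p6 chr1:55088053-55088082 (minus strand) for Hspd1, chr5:149636287-149636316 (minus) for Hsph1 and chr7:128523603-128523632 (plus) for Bag3, with element letters in capitals.
Hspd1: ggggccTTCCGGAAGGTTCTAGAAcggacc
Hsph1: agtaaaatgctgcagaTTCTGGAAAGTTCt
Bag3: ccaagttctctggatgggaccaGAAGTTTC
The capitals of Hspd1, 127 to 144 bases before a start, are 2 overlapping chains, at 132 to 144 and 127 to 139 bases; the chain for Hsph1 lies at bases 37 to 49 after a start, and the 2-unit element for Bag3 at bases 43 to 50. A match is a run of letters, not a measured binding site, and a window without letters says nothing of the factor.

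Between the dams none of the 9 tested genes was called at any age. At day 14 limma called 0 of 9 on deposited TPM, where 8.68% of all genes were called, and 0 after scaling, where 2.97% were. Unadjusted p-values under 0.05 numbered 4 of 9 as deposited (32.0% of all genes) and 0 after scaling (19.3%). Bag3 came closest as deposited, at 8.30, 5.58 and 9.01 TPM in IgA-null-nursed pups and 3.91, 3.69 and 5.82 TPM in B6-nursed pups. Replicate 2 of the IgA-null-nursed pups lay below the highest B6-nursed library, so the groups overlapped. The difference was 0.65 (0.18 to 1.13, adjusted p = 0.0734), where the median gene differed by 0.33, and 0.25 after scaling (adjusted p = 0.413). Without that replicate the deposited difference passed (adjusted p = 0.0419). Hsp90aa1 differed most of the 9 as deposited, at 127, 130 and 151 TPM against 81.2, 62.6 and 89.5 TPM in B6-nursed pups. Its difference was 0.81 (adjusted p = 0.144, limma) and 0.36 after scaling (adjusted p = 0.461), without overlap on either scale. Dnaja1, Dnajb1, Hspa8 and Hsph1 also stood higher in IgA-null-nursed pups without overlap as deposited. After scaling those overlapped, and Hspd1 and Hspa1a stood lower without overlap.

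At day 24 the inducible HSP70 genes differed most between the dams after scaling, in a comparison of 3 against 2 libraries. Scaled Hspa1b was 11.2, 8.54 and 9.05 TPM in IgA-null-nursed pups, against 3.34 and 2.41 TPM in B6-nursed pups. Scaled Hspa1a was 3.44, 2.52 and 2.76 TPM in IgA-null-nursed pups, against 1.27 and 0.471 TPM in B6-nursed pups. On this scale neither gene's groups overlapped, and the means differed 3.33-fold for each. The scaled log2 differences were 1.45 (0.74 to 2.17, adjusted p = 0.206, limma) and 1.09 (0.42 to 1.75, adjusted p = 0.292), and the deposited ones 0.90 (adjusted p = 0.114) and 0.60 (adjusted p = 0.216), none called. At this age 0.0265% of all genes were called as deposited and 0% after scaling. Summed scaled TPM of 7 Paneth cell markers was 3055 to 7615 in IgA-null-nursed and 633 to 1096 in B6-nursed pups at this age. For 10 enteroendocrine markers it was 348 to 494 and 885 to 1067. The goblet, stem, cycling and enterocyte sums overlapped between the dams. The part of these sums in the difference was not tested.

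Of the other 7 genes none was called at day 24 as deposited. Bag3 differed by -0.80, Hspd1 by -0.95 and Hspa8 by -0.81 (adjusted p = 0.0740, 0.0816 and 0.104), where the median gene differed by -0.38. Limma called 0 of 9, with 5 unadjusted p-values under 0.05 (30.9% of all genes), and 0 after scaling with 2 (10.1%). Without the second B6-nursed library, 4 passed as deposited, Bag3, Hspa8, Hspd1 and Hsph1, as did 32.4% of all genes; the 1 library left in the group is assumed to vary like the other groups. Without IgA-null-nursed replicate 1, 3 passed, Bag3, Dnaja1 and Hspa8, as did 14.6% of all genes. After scaling these 5 genes differed by -0.39 to -0.03, none called.

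At day 42 none of the 9 genes differed between the dams beyond the spread of the libraries. Hspa1b was at 4.13, 10.7 and 11.9 TPM in IgA-null-nursed pups and at 9.36, 11.0 and 10.7 TPM in B6-nursed pups, so the groups overlapped. The deposited differences of the 9 genes ran from -0.32 for Hspa1a (-0.94 to 0.30) to 0.30 for Hsph1 (-0.19 to 0.79). Limma called 0 of 9 on both scales, with 0 unadjusted p-values under 0.05, and 0% of all genes on both. The intervals leave room for differences of up to 0.99 in scaled Hspa1b (-0.99 to 0.28), so the absence of a call is not equality.

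**Figure D4:**
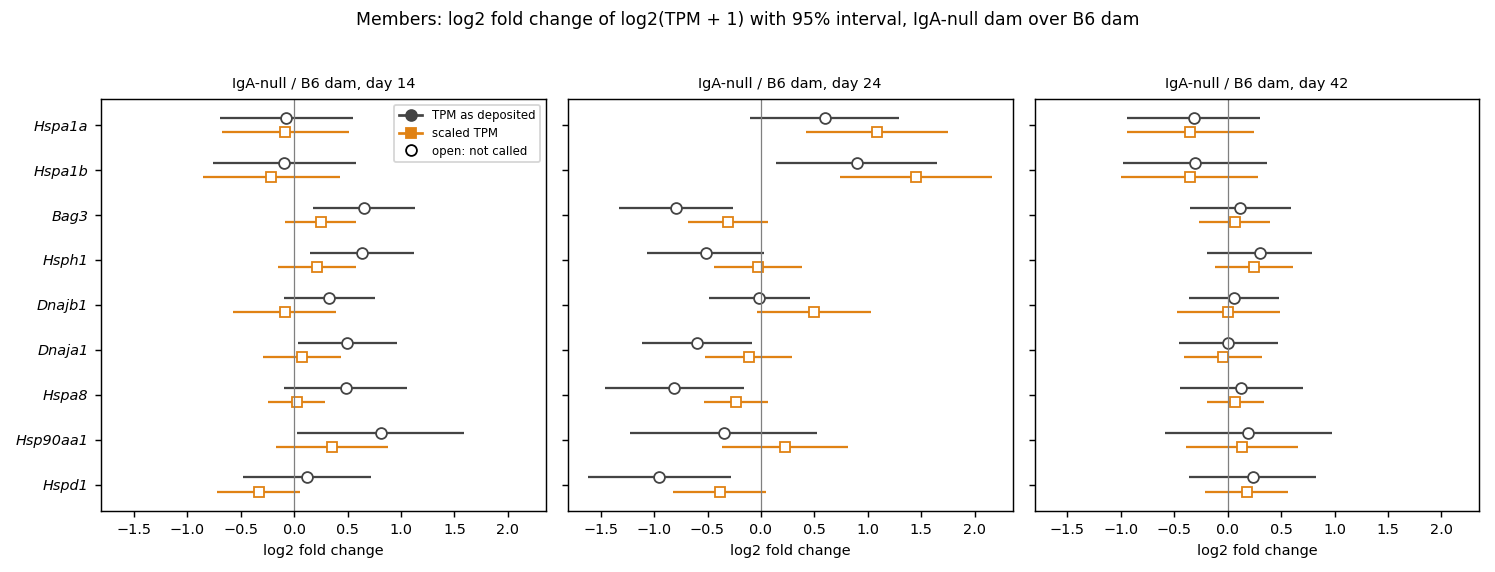
Log2 fold change of log2(TPM + 1), IgA-null dam over B6 dam (x axis), with its 95% interval for the 9 tested genes at days 14, 24 and 42; grey circles are deposited TPM, orange squares scaled TPM, and open symbols did not pass an adjusted p of 0.05. All symbols are open, and at day 24 Hspa1a and Hspa1b lie right of 0, scaled 1.09 and 1.45.

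Whether the dam effect changed with age was tested by limma's moderated F test. It called 0 of 9 genes on either scale, against 1.75% of all genes as deposited and 0.139% after scaling. Unadjusted p-values under 0.05 numbered 5 of 9 as deposited (40.3% of all genes) and 2 after scaling (10.2%). Limma-voom on the recovered reads also called 0 of 9 here, between the dams at each age, and for day 42 over day 24 with either dam. Bag3 had the smallest adjusted p as deposited (0.0619) and Hspa1b after scaling (0.192). The difference between dams at day 24 in the inducible HSP70 genes is thus not shown to be particular to that age. Without the second B6-nursed library of day 24, which leaves 1 in its group, 4 genes passed as deposited, beside 43.6% of all genes. Without the first IgA-null-nursed library of that day 5 passed, beside 26.2%, and without any other library at most 1 passed.

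The wider chaperone network, and the immediate early genes beside it, were read in lists that hold none of the 10 genes. At day 14, dam against dam, 5 of the 88 tested genes of these lists passed as deposited, against 8.68% of all genes, and none after scaling, against 2.97%. They were Dnaja4 (0.91, adjusted p = 0.0148) and Dnajb6 (1.03, adjusted p = 0.0476) of 14 tested J-domain proteins, Sdf2l1 (0.93, adjusted p = 0.0448) of 14 chaperones of the endoplasmic reticulum (ER), and Nr4a1 (1.56, adjusted p = 0.00817) and Gadd45b (0.81, adjusted p = 0.00959) of 18 immediate early genes. Their scaled adjusted p ran from 0.0569 to 0.146. In the other lists the smallest p at day 14 belonged to Hspa9 (0.70, adjusted p = 0.157), Hspa4l (0.51, adjusted p = 0.0845), Unc45a (0.60, adjusted p = 0.0615), Hspe1 (0.79, adjusted p = 0.132), Hspbap1 (0.50, adjusted p = 0.112) and Hspb6 (-0.10, adjusted p = 0.727).

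Hspa4l, an HSP110-type exchange factor, was called higher at day 42 over day 14 after scaling with each dam. In IgA-null-nursed pups it averaged 2.46, 1.08 and 3.89 TPM at days 14, 24 and 42, and all 9 listed exchange factors fell as deposited at day 24 over day 14, where 82.9% of all genes did. Its change at day 42 over day 14 was 0.49 (adjusted p = 0.0430, scaled 0.90, adjusted p = 0.000108, limma). Day 42 over day 24 gave a log2 change of 1.24 (adjusted p = 0.00232, and 0.72 after scaling, adjusted p = 0.00787). In B6-nursed pups it averaged 3.32 TPM at day 42 against 1.43 TPM at day 14 (0.79, adjusted p = 0.0111, scaled 0.92, adjusted p = 5.77e-05). Bag2, a BAG-domain exchange factor, averaged 0.457 TPM at day 42 in IgA-null-nursed pups against 1.94 TPM at day 14 (adjusted p = 0.00128, scaled log2 change -0.60, adjusted p = 0.00678). Over the list of 9, 2 rose and 1 fell after scaling at day 42 over day 14, with each dam, with a median of 0.13 in IgA-null-nursed pups and -0.04 in B6-nursed pups. Of all genes 8.4% were called higher and 8.09% lower in IgA-null-nursed pups, and 7.04% higher and 6.6% lower in B6-nursed pups.

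Of 13 genes for HSP90 and its co-chaperones, 2 rose and 1 fell after scaling at day 42 over day 14 in IgA-null-nursed pups, with 8.4% of all genes called higher and 8.09% lower. None passed in either direction in B6-nursed pups. At day 24 over day 14 in B6-nursed pups 2 of the 13 rose after scaling (7.93% of all genes), among them Fkbp5, a steroid-receptor co-chaperone and glucocorticoid target. It averaged 2.99 TPM at day 24 against 0.958 TPM at day 14 (0.92, adjusted p = 0.0351, scaled 1.17, adjusted p = 0.000392). The 2 libraries of that day 24 group stood apart, at 1.52 and 4.46 TPM. In IgA-null-nursed pups scaled Fkbp5 did not rise, averaging 0.973 TPM at day 24 against 1.21 TPM at day 14. Hspb6 was the small heat shock protein among the other 7 that passed the filter. For B6-nursed pups it averaged 0.610 TPM at day 42 against 1.76 TPM at day 14 (-0.79, adjusted p = 0.0145, scaled -0.67, adjusted p = 0.00558).

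Chaperones of the ER answer to a separate stress pathway, the unfolded protein response. After scaling 2 of 14 rose at day 24 over day 14 in IgA-null-nursed pups and 5 at day 42 over day 14, while 9 and 5 rose in B6-nursed pups. The shares of all genes called higher in these 4 comparisons were 8.35%, 8.4%, 7.93% and 7.04%. On deposited TPM none was called higher. In IgA-null-nursed pups the deposited direction was the opposite one: all 14 fell at day 24 over day 14, where 82.9% of all genes did, and 1 fell at day 42, where 38.9% did. In B6-nursed pups the deposited medians were 0.10 and 0.12, with none lower. Sdf2l1, an ER co-chaperone, averaged 13.7 TPM at day 24 in B6-nursed pups against 7.54 TPM at day 14 (0.76, adjusted p = 0.127, scaled 1.17, adjusted p = 0.000158). The scaled medians of the list were 0.28 and 0.27 in IgA-null-nursed pups and 0.55 and 0.34 in B6-nursed pups, beside all-gene medians near 0.

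Of 6 listed heat shock factors and regulators 4 were tested, and none was called between any days or dams after scaling. Hsf1, which encodes heat shock factor 1, averaged 2.52 TPM at day 42 against 3.58 TPM at day 14 in IgA-null-nursed pups (-0.37, adjusted p = 0.105, scaled 0.09, adjusted p = 0.565). In B6-nursed pups it averaged 2.05 TPM at day 42 against 2.60 TPM at day 14 (-0.26, adjusted p = 0.439, scaled -0.10, adjusted p = 0.595). Among the immediate early genes 5 of 18 fell on both scales at day 42 over day 14 in IgA-null-nursed pups, where 38.9% of all genes fell as deposited and 8.09% after scaling. Among B6-nursed pups 2 fell on both scales, Jun and Fosb, where 6.33% and 6.6% of all genes fell, and 1 rose. Jun fell by 2.15 in IgA-null-nursed pups (adjusted p = 6.35e-05, scaled -1.52) and by 1.46 in B6-nursed pups (adjusted p = 0.00216, scaled -1.23).

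**Figure D5:**
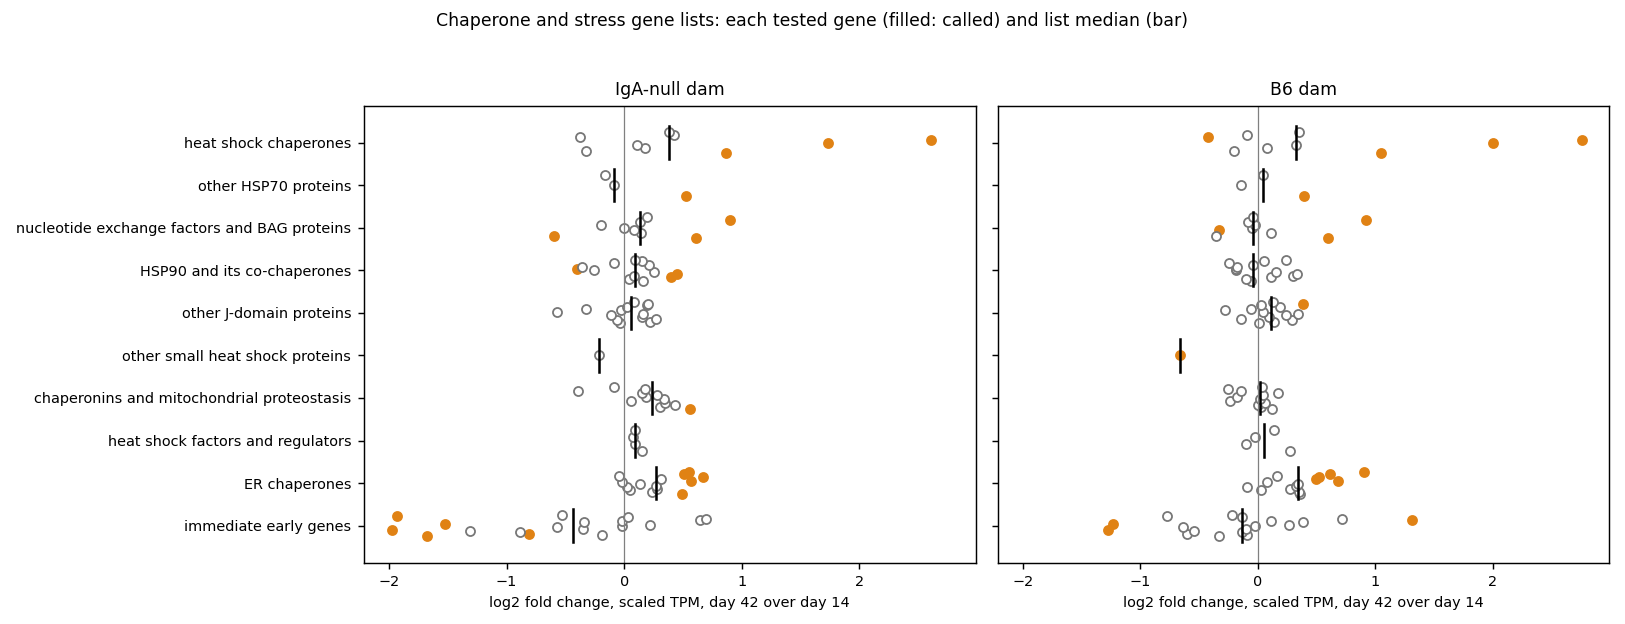
Scaled log2 fold change of day 42 over day 14 (x axis) for each tested gene of the chaperone lists and of the immediate early genes, IgA-null dam at the left and B6 dam at the right; filled points passed an adjusted p of 0.05 and black bars are list medians. Hspa1b and Hspa1a are the points farthest right in both panels, at 2.61 and 1.74 in IgA-null-nursed pups and 2.75 and 2.00 in B6-nursed pups.

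Within the group, the patterns over the 17 libraries split. With scaled Hspa1b, Pearson's r of log2(scaled TPM + 1) was 0.99 for Hspa1a, 0.76 for Bag3, 0.60 for Hsph1, 0.48 for Dnajb1, 0.45 for Hsp90aa1, 0.00 for Hspd1, -0.33 for Dnaja1 and -0.76 for Hspa8. The libraries share their 6 groups, so these values mostly describe group means. How reads of the near-identical Hspa1a and Hspa1b were divided is not known, so their r of 0.99 may not compare separate measurements. Outside the group, the genes most like the mean of the 9 were Itpka (r = 0.83), Ciita (0.82), Mvd (0.81), Krt19 (0.80), Zc3h12a (0.80), Cabin1 (0.79), Slc41a1 (0.79), E2f2 (0.79), Desi2 (0.79) and Stk39 (0.79). Those most like Hspa1b, a list added after its values were seen, were headed by Snph (0.94), Ciita (0.94), Zc3h12a (0.94) and Stk39 (0.94), then the MHC class II genes H2-Eb1 (0.91) and H2-Ab1 (0.91). H2-Ab1 ranged from 1.09 to 40.6 TPM.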

How the data were processed

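RNA of sorted EpCAM+ CD45- Ter119- cells was amplified with SMART-seq v4 and made into Nextera XT libraries, per the labels' protocols. The submitters' processing notes name mm10, Bowtie2, Subread and DESeq2 without versions. How reads shared by near copies were counted, and the strand setting, are not given in the sources used here. The authors deposited TPM for 53278 symbols, and each library sums to 1000000.

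Multiplying TPM by GENCODE M21 exon lengths (found for 49612 symbols) gave whole reads for 93.6% of values, within 0.01 reads or a relative 1e-04. These gave depth and a limma-voom alternative (14659 genes).

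Testing used limma 3.58.1 under R 4.3.3, with trended moderation of log2(TPM + 1) values and a mean for each of the 6 groups over 17 libraries. Genes with at least 1 TPM in at least 2 libraries entered, and a Benjamini-Hochberg adjusted p under 0.05 over all 15066 was a call. Scaled values divide TPM by size factors from 16088 genes, with the same genes tested. Further settings were pseudocounts of 0.1 and 5, no filter, at least 5 TPM, only the compared groups, a replicate block, Hspa1a and Hspa1b summed, and each library left out, which was also done after scaling once the data had been seen. Where that left 1 library in a group, the pooled spread of the other groups was used. The fit was also run on simulated data with planted changes. Those data held no shared shift of most genes, so that run does not bear on the effect of scaling. Tables were made in Python 3.11.15 (pandas 2.3.3, scipy 1.17.1).

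Start windows and element letters came from RefSeq GRCm38.p6. The genes, lists and naming rule were chosen with earlier results of these data known. From each further list the genes named were those called between dams at day 14, or the smallest p, and at most 2 by smallest p for other comparisons. The 10 genes most like the group's mean pattern were ranked without predicted genes.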

Additional observations from a re-analysis of the deposited data

How the results depend on the processing

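Scaling changed 5 of the 10 counts of called genes; the other 5 were 0 on both scales. The 9 genes called for day 24 over day 14 in IgA-null-nursed pups became 3 after scaling and 3 with voom on recovered reads, and the 5 of day 42 over day 24 became 0 and 0. The 1 gene of day 24 over day 14 in B6-nursed pups became 2 and 2. In the first comparison Bag3 turned from -0.53 to 0.76 and 0.88, Dnajb1 from a fall to 0.33 and 0.38, Hsp90aa1 from -1.30 to 0.18 and 0.18, and Hsph1 from -1.23 to 0.066 and 0.071. In the second Dnajb1 turned from 0.60 to -0.16 and -0.19, and Hspa8 from 0.78 to -0.078 and -0.079. The cause was not tested. Among uncalled values, 17 changed sign under either. With only the groups compared, 2 genes passed between dams at day 14 and 0 for day 24 over day 14 in B6-nursed pups, where no filter also gave 0. At a TPM of at least 5, 1 gene passed between dams at day 24 and 1 in the test across ages.

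Leaving out 1 library gave 0 to 1 calls between dams at day 14, 0 to 4 at day 24 and 0 to 0 at day 42, and 0 to 5 in the test across ages. In IgA-null-nursed pups it gave 8 to 9 for day 24 over day 14, 3 to 7 for day 42 over day 24 and 3 to 4 for day 42 over day 14, and in B6-nursed pups 0 to 2, 0 to 0 and 2 to 3.

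The labels give no pairing by replicate number. Over the tested genes, deviations from the group mean correlated at -0.22 to 0.12 between same-numbered libraries of the 2 dams. With 2 or 3 libraries a group, this check cannot exclude pairing. A replicate block left the counts at 0, 0 and 0 between dams, 9, 5 and 4 in IgA-null-nursed pups, 1, 0 and 3 in B6-nursed pups, and 0 across ages. Depth limits Hspa1a at day 14, with 6 reads in IgA-null-nursed and 15 in B6-nursed pups, and Hspb1 throughout.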
